A study of Arabidopsis thaliana with 83 samples.

Results

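The comparison described here is the last interval of an auxin time course in Fei-0, a natural accession of Arabidopsis thaliana: the 2 arrays titled Fei-0 at 3 h, which are all the Fei-0 arrays at that time, against the 3 arrays titled Fei-0 at 1 h. These 5 arrays were chosen by title alone, from 11 Fei-0 arrays and 83 arrays in the series. The series measured transcripts on Affymetrix ATH1 arrays in 7 natural accessions (Fei-0, Sha, Col-0, C24, Bur-0, Bl-1 and Bay-0) at 0 h, 30 min, 1 h and 3 h, to compare how natural accessions respond to auxin. Both Fei-0 groups were whole seedlings without a transgene or mutation in the labels, raised for 7 days in shaken liquid medium at 22 °C under constant white light, after 5 days of cold stratification, and for the last 24 h the light passed a yellow filter that protects indole-3-acetic acid (IAA) from breakdown by light. The groups differ in the labels by time alone, and neither an auxin dose nor a mock treatment at the later times is stated in the sources used here. Separate cultures are not stated for the arrays of a group. A p-value here covers only the spread between arrays within groups, pooled over all 83 arrays of the series, and that spread may be technical. Titles are numbered accession by accession and, within an accession, time by time, so time cannot be told apart from the order in which samples were handled. In whole seedlings, fewer cells of a type and less RNA per cell cannot be told apart.

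Auxin acts by bringing Aux/IAA repressors to a ubiquitin ligase that marks them for destruction, which frees auxin response factors to switch on target genes. Among the first targets are the Aux/IAA genes themselves, the SAUR genes, the GH3 genes, whose enzymes join IAA to amino acids and so lower the free hormone, and the LBD genes that start lateral roots. Because many of these products are repressors or enzymes that remove the hormone, the response is known for feedback, and early transcripts often pass a peak. Auxin also loosens cell walls in the shoot, where expansins, xyloglucan hydrolases and pectin enzymes act on the polymers of the wall.

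Between 1 h and 3 h more probe sets fell than rose. Values below are signals on the deposited linear scale, and a step is the difference between the group means of log2(signal + 16), 3 h minus 1 h, given ± its standard error (SE) in the model, so that the change of dim genes is understated. In limma's moderated test fitted over all 83 arrays, 47 of 15922 probe sets were called higher at 3 h (0.295%) and 101 lower (0.634%), where called means an adjusted p (Benjamini-Hochberg) under 0.05 with a change of 2-fold or more. Of these 148, 24 higher and 39 lower probe sets were listed with 1 gene, and only those are named. The probe sets called higher had a median signal of 64 at 1 h and 189 at 3 h, and those called lower of 146 and 49.4. At an adjusted p under 0.05 and any size, 495 probe sets rose (3.11%) and 755 fell (4.74%), and the median step of all probe sets was 0.00. In the text "rose" and "fell" are used of an adjusted p under 0.05 at any size, and "called" adds the 2-fold limit. A probe set with no single listed gene had the largest fall of all, at -2.37 ± 0.16 (mean signals of 356 at 1 h and 55.7 at 3 h), and another without one rose by 2.17 ± 0.18 (113 and 561). With a pseudocount of 64 in place of 16, the called numbers were 19 higher and 29 lower.

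Of the classical auxin-responsive genes with a listed probe set, the homeobox gene HAT2 had the largest fall. HAT2 encodes a class II HD-Zip transcription factor that auxin induces early. Its signal was 205, 169 and 156 at 0 h, 1327, 1246 and 1320 at 30 min, then 1192, 919 and 1038 at 1 h, and 342 and 385 at 3 h. Every 3 h array lay below every 1 h array and above every 0 h array. The step was -1.49 ± 0.15 (SE; limma adjusted p = 9.75e-12).

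The Aux/IAA genes were measured by 3 of 29 listed members, and 2 of them fell while none rose, beside 2.96% of all genes that rose and 4.02% that fell when each gene was counted once. These shares belong beside each list count below. A list made after the values were seen could follow those values, so its count describes and does not test. IAA30 had signals of 57.4, 81.8 and 72.2 at 1 h and 40.2 and 25.7 at 3 h, and its step was -0.83 ± 0.14 (limma adjusted p = 2.33e-05). IAA29 had 130, 112 and 129 at 1 h and 64.8 and 76.3 at 3 h, with a step of -0.69 ± 0.21 (limma adjusted p = 0.0251). In both genes the 1 h and 3 h arrays did not overlap, and all 3 h arrays still lay above those at 0 h, which were 15.1, 15 and 10.7 for IAA30 and 20.6, 16.2 and 20.9 for IAA29. The third member, IAA18, had a step of 0.25 ± 0.14 (limma adjusted p = 0.322). IAA29 lost its adjusted p when any of 4 arrays was left out (1 h replicate 1 or 3, 3 h replicate 2 or 3), with steps of -0.66, -0.66, -0.59 and -0.79.

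No GH3 gene passed the test. Of 4 measured, 0 passed the adjusted p of limma in either direction, and at an unadjusted p under 0.05 GH3.1 was higher and GH3.3 lower. GH3.3 had 131, 82.4 and 96.5 at 0 h, 4035, 3069 and 3358 at 1 h, and 2796 and 2728 at 3 h. Both 3 h arrays lay below the 1 h arrays, by a step of -0.33 ± 0.15 (limma adjusted p = 0.204), and far above 0 h. WES1, also named GH3.5, had 849, 1105 and 879 at 1 h and 1033 and 1126 at 3 h, and the groups overlapped (step 0.20 ± 0.14, limma adjusted p = 0.455). GH3.1 had 77.5, 89.4 and 95.1 at 1 h and 156 and 121 at 3 h, without overlap, and its step of 0.57 ± 0.20 missed the threshold (limma adjusted p = 0.0602). GH3.17 had a step of 0.23 ± 0.18 (limma adjusted p = 0.532).

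**Figure D1:**
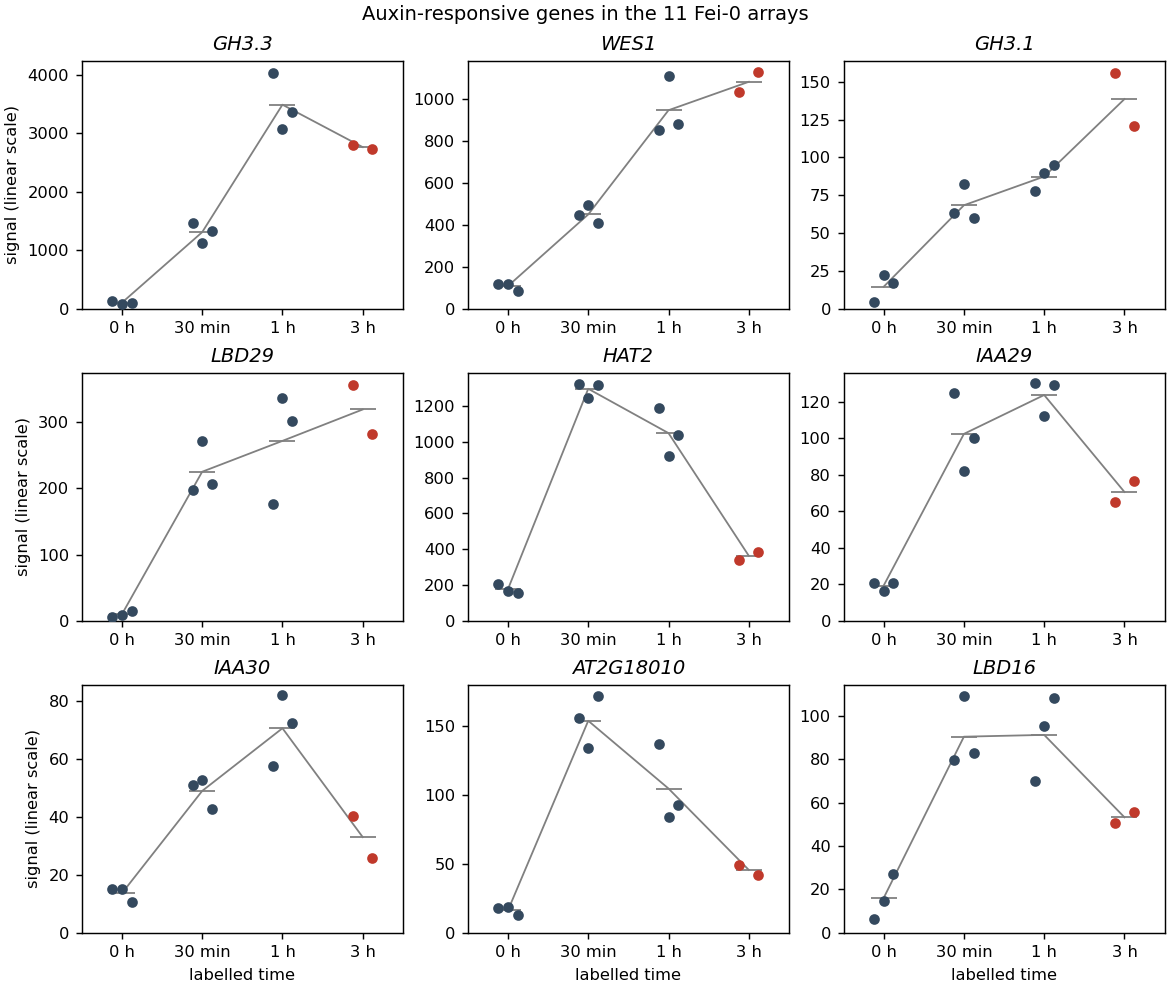
Signal (linear scale, y axis from 0) against labelled time for 9 auxin-responsive genes in the 11 Fei-0 arrays, each point 1 array, with 3 h in red and dashes at group means joined by lines. HAT2, IAA29, IAA30 and AT2G18010 were lower at 3 h than in every 1 h array, whereas WES1 and LBD29 overlapped between 1 h and 3 h.

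Among the SAUR genes, small transcripts known for their fast induction, AT2G18010 (SAUR10) fell. Its signals were 17.6, 18.5 and 12.7 at 0 h, 156, 134 and 172 at 30 min, then 137, 84.4 and 92.9 at 1 h, and 49.1 and 42.2 at 3 h. Its 3 h arrays lay between the 0 h and the 1 h arrays, and the step was -0.95 ± 0.20 (limma adjusted p = 0.000452). The other measured SAUR, AT1G43040 (SAUR58), had a step of -0.04 ± 0.17 (limma adjusted p = 0.936). After their values were seen, a pair of further genes tied to auxin was picked out. IAGLU, whose enzyme joins glucose to IAA, fell from 151, 137 and 130 to 103 and 82.9 (step -0.51 ± 0.16, limma adjusted p = 0.0282), and ARL, an ARGOS-like gene that promotes cell expansion, fell from 685, 564 and 662 to 368 and 458 (step -0.61 ± 0.14, limma adjusted p = 0.00127). The groups did not overlap in either gene. IAGLU lost its adjusted p without 1 h replicate 1 (-0.46) or 3 h replicate 3 (-0.38), and ARL without 3 h replicate 2 (-0.46). WAG2, a kinase that steers auxin efflux carriers, and YUC2, an enzyme of auxin synthesis, did not pass, with steps of -0.36 ± 0.16 and -0.11 ± 0.15 (limma adjusted p = 0.172 and 0.74).

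Of 4 measured lateral root genes, PUCHI alone passed the test. LBD29 and LBD16 encode related transcription factors that act in pericycle cells before the first divisions of a lateral root. LBD29 had 177, 337 and 302 at 1 h and 357 and 282 at 3 h, which overlapped (step 0.26 ± 0.20, limma adjusted p = 0.517). LBD16 had 70.1, 95.4 and 108 at 1 h and 50.7 and 55.7 at 3 h, which did not overlap, but its step of -0.62 ± 0.21 missed the threshold (limma adjusted p = 0.0552). With a pseudocount of 64 in place of 16, LBD16 passed, at -0.40 (limma adjusted p = 0.0368). PUCHI, an AP2/ERF factor of lateral root primordia, had 8.14, 8.87 and 18.1 at 0 h, 27.9, 37.4 and 28.7 at 1 h and 59.5 and 53.1 at 3 h, and it rose (step 0.62 ± 0.17, limma adjusted p = 0.0154). Its 3 h arrays were the highest of the 11. PUCHI lost its adjusted p when 1 h replicate 1 or 3, or 3 h replicate 2 or 3, was left out, at steps of 0.56, 0.58, 0.55 and 0.68. At an unadjusted p under 0.05 limma gave 1 lateral root gene in each direction.

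Among probe sets with 1 listed gene, the largest falls were those of AT2G41810 and AT1G14960, for which the reference gives no name. AT2G41810 had 71.1, 126 and 107 at 1 h and 10.3 and 17.3 at 3 h, a step of -1.96 ± 0.31 (limma adjusted p = 4.23e-06). AT1G14960 had 465, 910 and 742 at 1 h and 201 and 165 at 3 h, a step of -1.81 ± 0.24 (limma adjusted p = 8.04e-08). Over 0 h and 30 min AT2G41810 ran between 107 and 202 and AT1G14960 between 519 and 931, so in both genes the 3 h arrays were the lowest of the time course. AT5G04120 reached the lowest level of the 14 largest falls, with 27.8, 46 and 44.6 at 1 h and 5.74 and 1.05 at 3 h, a step of -1.51 ± 0.30 (limma adjusted p = 0.00026), where a signal below the pseudocount leaves the fold poorly set. The same limit applies to AT1G70985, with 3.78 and 7.35 at 3 h, and AT5G52670, with 9.92 and 2.15. Their steps were -0.55 and -0.57 with a pseudocount of 64, and -2.60 and -2.81 with 1. From MSRB5 at -1.66 to AT3G53980 at -1.26, none of the 14 had overlap between 1 h and 3 h arrays, and AT1G70985 (-1.32 ± 0.22) and AT1G29660 (-1.29 ± 0.17) were among them (limma adjusted p = 1.58e-05 and 9.74e-08). Of these, AT4G15680, at -1.41, lost its adjusted p without 3 h replicate 2 (-1.36), and AT5G19110, at -1.37, its 2-fold change without 3 h replicate 3 (-0.94).

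**Figure D2:**
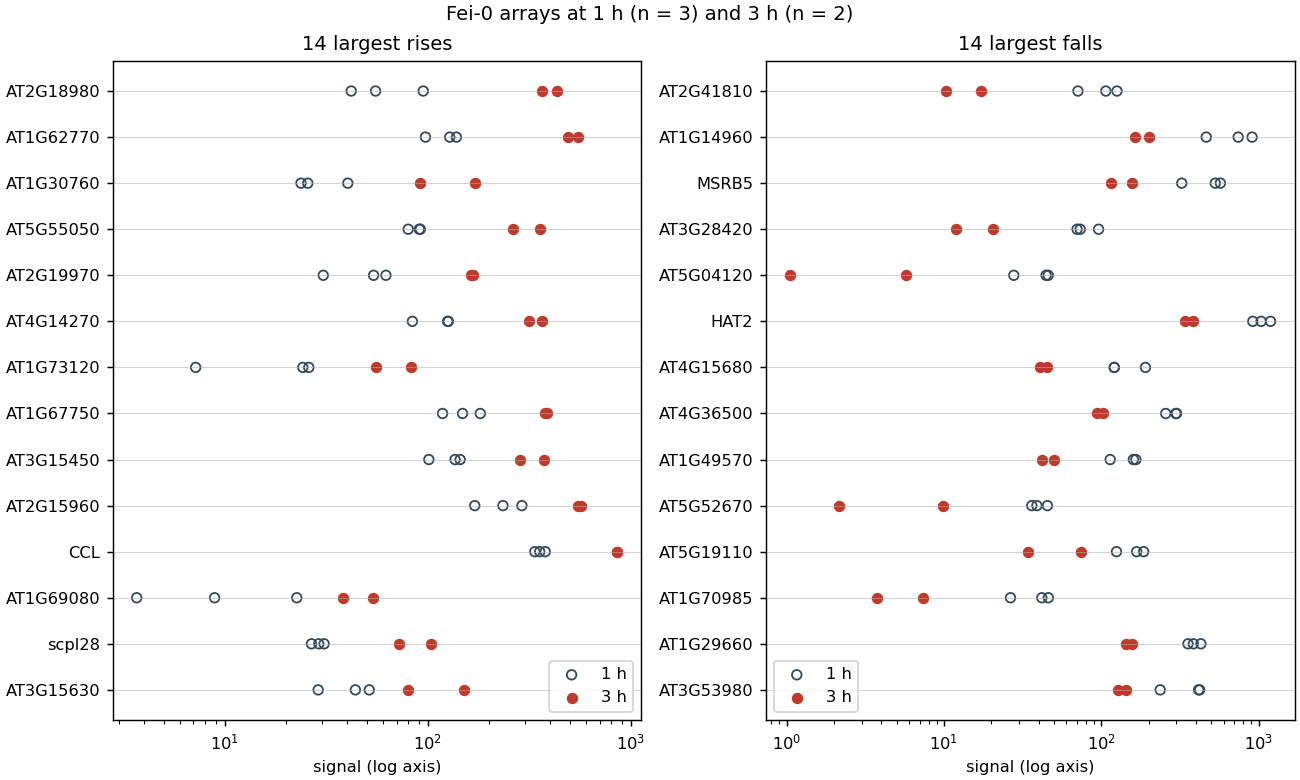
Signal (log axis) in each Fei-0 array at 1 h (open circles, n = 3) and 3 h (red, n = 2) for the 14 largest rises and the 14 largest falls among called probe sets with 1 gene. In each of the 28 genes the 3 h arrays lay on 1 side of all 1 h arrays. AT2G18980 rose most, with 41.9 to 94.8 at 1 h and 364 and 434 at 3 h.

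The falls included enzymes that repair oxidised methionine. Methionine sulfoxide reductases B turn the R form of methionine sulfoxide back into methionine. A list of them, made after the values were seen, had 4 measured members, of which 3 fell and 0 rose, beside 4.02% and 2.96% of all genes. MSRB5 had 325, 572 and 531 at 1 h and 116 and 158 at 3 h (step -1.66 ± 0.21, limma adjusted p = 2.59e-08). MSRB9 had 635, 847 and 854 at 1 h and 388 and 353 at 3 h (step -1.03 ± 0.15, limma adjusted p = 1.27e-06), and MSRB6 had 75.6, 70.1 and 70.9 at 1 h and 29.9 and 40.3 at 3 h (step -0.80 ± 0.17, limma adjusted p = 0.000711). None of these 3 genes had overlapping groups, and in all 3 the 3 h arrays were the lowest of the 11 Fei-0 arrays. Left-out arrays moved MSRB9 to -0.96 in 3 cases (1 h replicate 2, 1 h replicate 3, 3 h replicate 3) and ended the adjusted p of MSRB6 in 1 (3 h replicate 2, -0.65).

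Several genes of the cell wall fell, and none of the expansins, xyloglucan hydrolases or trichome birefringence-like genes rose. Of 15 measured expansins, which loosen walls without cutting them, 4 fell, beside 4.02% of all genes. Their median step was -0.14, against 0.01 for all genes. Expansin-like EXLA2 fell most, from 197, 131 and 176 at 1 h to 73.2 and 58.3 at 3 h (step -1.16 ± 0.18, limma adjusted p = 4.23e-06), and its arrays at 3 h were below those at 0 h, which were 77.3, 83.8 and 76.9. EXPA8, EXLA1 and EXPA15 fell by 0.76, 0.72 and 0.64 on the log2 scale (limma adjusted p = 0.0222, 0.0157 and 0.0296). With 1 array left out, 2 or 3 expansins fell, and without 3 h replicate 2 the step of EXPA15 was -0.22. EXPA8 lost its adjusted p without 1 h replicate 1 (-0.58) or either 3 h array (-0.64 and -0.87), EXLA1 without 1 h replicate 2 (-0.52) or 3 h replicate 3 (-0.60), and EXPA15 also without 1 h replicate 2 (-0.61) or 3 (-0.58).

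Xyloglucan hydrolases, which cut and rejoin the xyloglucan that ties cellulose fibres, had 8 measured members, of which 2 fell, beside 4.02% of all genes. Their median step was 0.10, against 0.01 for all genes. XTH33 had 223, 181 and 157 at 1 h and 91.7 and 89.3 at 3 h, close to 94.2, 88.9 and 94.7 at 0 h (step -0.92 ± 0.17, limma adjusted p = 6.36e-05). XTH16 had a step of -0.57 ± 0.18 (limma adjusted p = 0.0396), which was lost without 1 h replicate 1 (-0.56) or 2 (-0.51) or without either 3 h array (-0.50 and -0.64). The neighbours XTH18 and XTH19 did not pass, at 0.35 ± 0.20 and 0.18 ± 0.19 (limma adjusted p = 0.334 and 0.671), and both had overlapping groups. Of 18 trichome birefringence-like genes, a family with acetyltransferases of wall polysaccharides and a list made after the values were seen, 3 fell, with 1 to 3 when an array was left out, and TBL45 led with 332, 300 and 292 at 1 h and 169 and 149 at 3 h (step -0.89 ± 0.16, limma adjusted p = 7.67e-05). At an unadjusted p under 0.05 in limma, 2 trichome birefringence-like genes were higher and 5 lower. Beside the 3 falls by adjusted p stood 4.02% of all genes. THE1, a receptor kinase that watches over wall integrity and was named after its values were seen, fell from 168, 150 and 175 to 113 and 108 (step -0.51 ± 0.11, limma adjusted p = 0.000579, and 0.0807 with only the 5 arrays of the step in the fit).

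Of the list of pectin enzymes and their inhibitors, 3 members were measured and 0 passed the adjusted p of limma (0 higher and 2 lower at an unadjusted p under 0.05), but a pair of pectin genes outside it rose. AT1G62770, of the pectin methylesterase inhibitor family, which keeps pectin methylated, had 138, 97.2 and 128 at 1 h and 546 and 489 at 3 h. AT1G67750, a pectate lyase gene, had 118, 181 and 148 at 1 h and 379 and 387 at 3 h. Both rose, by 1.97 ± 0.19 (limma adjusted p = 2.48e-12) and 1.29 ± 0.12 (limma adjusted p = 2.48e-12), and their 3 h arrays were the highest of the 11. The berberine bridge enzyme-like gene AT1G30760 had 23.7, 40.3 and 25.6 at 1 h and 171 and 91 at 3 h, without overlap (step 1.64 ± 0.22, limma adjusted p = 8e-08).

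The largest rise with 1 listed gene was that of AT2G18980, which had fallen before it rose. Its signals were 136, 172 and 216 at 0 h, 102, 167 and 123 at 30 min, then 41.9, 94.8 and 55.2 at 1 h and 364 and 434 at 3 h. Each 1 h array was below each 0 h array, and each 3 h array above all others, with a step of 2.42 ± 0.25 (limma adjusted p = 3.91e-11). AT5G55050 had 91.7, 90.6 and 79.9 at 1 h and 355 and 261 at 3 h, from 69.1 to 86.8 at 0 h, and so had a step of 1.63 ± 0.18 (limma adjusted p = 3.68e-10). AT2G19970 (1.51 ± 0.25) and AT4G14270 (1.49 ± 0.14) followed, with limma adjusted p of 7.53e-06 and 2.5e-12. The last of the 14 largest rises included AT2G15960 (1.25 ± 0.36), AT1G69080 (1.21 ± 0.23) and AT3G15630 (1.16 ± 0.21), with limma adjusted p of 0.0186, 0.000186 and 4.19e-05. AT3G15630 had mean signals of 104 at 0 h, 41.4 at 1 h and 115 at 3 h. AT2G15960 lost its adjusted p without 1 h replicate 2 (1.06) or either 3 h array (1.27 and 1.23), and AT3G15630 without 3 h replicate 3 (0.76), while AT1G69080 and AT3G15630 were both at 0.99 without 1 h replicate 1.

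Among the rises with a reference name were those of CCL, PORB and scpl28, and of GI, the single measured member of the clock list. CCL, a CCR-like gene, had 378, 355 and 336 at 1 h and 850 and 856 at 3 h (step 1.22 ± 0.22, limma adjusted p = 4.42e-05). PORB, which makes chlorophyllide in the light, had 556, 464 and 520 at 1 h and 917 and 1337 at 3 h (step 1.09 ± 0.19, limma adjusted p = 1.77e-05), and GI, the clock gene GIGANTEA, had 94.7, 115 and 94.7 at 1 h and 188 and 151 at 3 h (step 0.66 ± 0.15, limma adjusted p = 0.00128). None of the 3 had overlapping groups, and PORB dropped under 2-fold without 3 h replicate 3 (0.82) and GI lost its adjusted p without 3 h replicate 2 (0.52). scpl28, a serine carboxypeptidase-like gene, had 29, 26.7 and 30.8 at 1 h and 103 and 72.1 at 3 h (step 1.19 ± 0.17, limma adjusted p = 1.85e-07), and a step of 0.97 without 3 h replicate 2. Named after their values were seen, SAPX, a stromal ascorbate peroxidase, rose from 150, 154 and 171 to 264 and 351 (step 0.88 ± 0.16, limma adjusted p = 8.58e-05), LEP, an AP2/ERF gene of leaf development, rose from 26.4, 48.2 and 32.6 to 82 and 67.6 (step 0.83 ± 0.16, limma adjusted p = 9.72e-05), and HYH, the light-signalling homologue of HY5, fell from 30.6, 33 and 43.6 to 15.6 and 11.7 (step -0.80 ± 0.15, limma adjusted p = 8.58e-05). At 0 h SAPX had been at 258, 239 and 342, above its 1 h arrays.

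A low-energy list named 14 genes whose transcripts are known to rise when sugar runs short. Only 2 of them were measured, and both rose, beside 2.96% of all genes. AT3G15450 had 268, 244 and 220 at 0 h, 101, 136 and 144 at 1 h and 285 and 374 at 3 h, so its lowest arrays were those at 1 h and its highest of the 11 those at 3 h (step 1.28 ± 0.21, limma adjusted p = 6.55e-06). AKINBETA1, a regulatory subunit of the energy-sensing SnRK1 kinase, had 97.3, 104 and 105 at 1 h and 127 and 153 at 3 h (step 0.40 ± 0.11, limma adjusted p = 0.015). From 0 h to 3 h AT3G15450 and AKINBETA1 did not pass (0.40 and 0.17, limma adjusted p = 0.229 and 0.382). AKINBETA1 lost its adjusted p without 1 h replicate 1 (0.37) or 3 h replicate 3 (0.27). Of 11 autophagy genes, a list made after the values were seen, 3 rose and 0 fell, and with 1 array left out 0 to 2 rose. Beside them, 2.96% of all genes rose and 4.02% fell. The 3 were ATG8E (0.60 ± 0.16, limma adjusted p = 0.011) and APG8A (0.53 ± 0.17, limma adjusted p = 0.0396), whose proteins are anchored in the autophagosome membrane, and AT5G66930 (ATG101, 0.44 ± 0.14, limma adjusted p = 0.0364), of the kinase complex that starts autophagy. Without 3 h replicate 2 their steps were 0.42, 0.30 and 0.39, and none of the 3 passed.

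**Figure D3:**
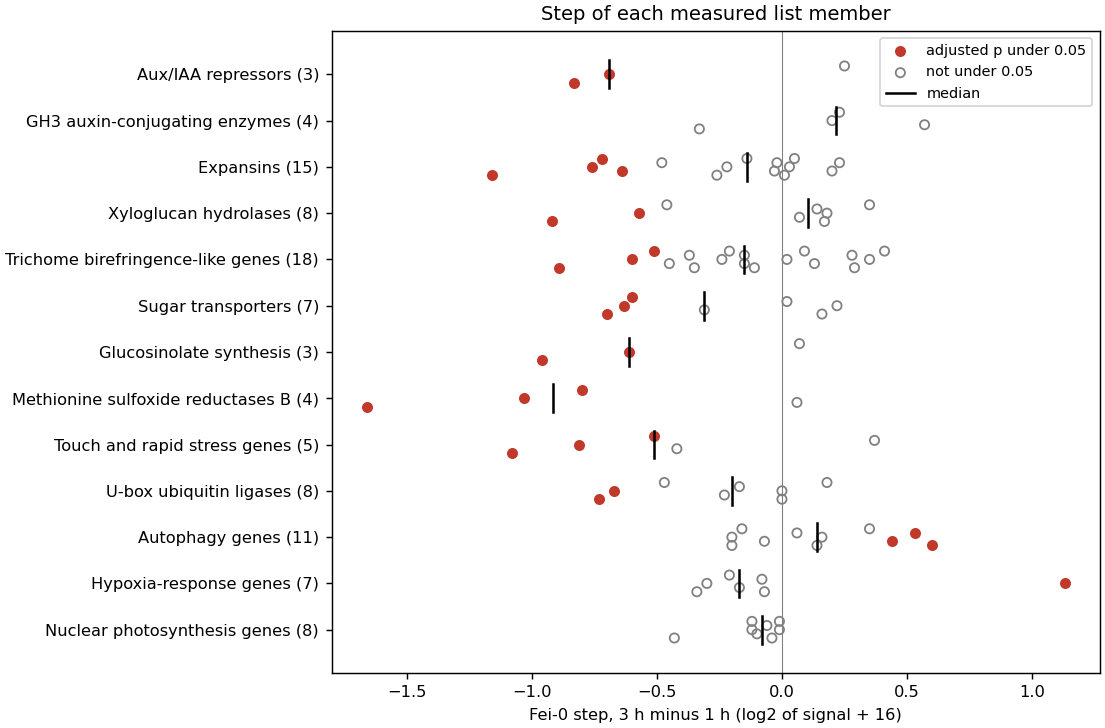
Step of each measured member (x axis, difference in log2 of signal + 16, 3 h minus 1 h) for 13 gene lists, with the number of measured genes in brackets, filled points at limma adjusted p under 0.05 and a black bar at the list median. Filled points of the wall, sugar transport, touch and methionine sulfoxide reductase lists lie below 0, and those of the autophagy list above it.

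Sugar transporters and glucosinolate genes fell or did not pass. Of 7 measured sugar transporters 3 fell, beside 4.02% of all genes. SWEET16, SWEET17 and SWEET11 fell by 0.70, 0.63 and 0.60 on the log2 scale (limma adjusted p = 0.0143, 0.0391 and 0.0204). SWEET11, a sucrose exporter of the leaf phloem, had 1141, 970 and 825 at 1 h and 682 and 587 at 3 h, without overlap. With 1 array left out, 0 to 2 of the 3 passed, and without 3 h replicate 3 their steps were -0.73, -0.64 and -0.50. Of 3 glucosinolate genes 2 fell. BCAT4, which starts the lengthening of methionine on the way to aliphatic glucosinolates, had 1624, 1337 and 1463 at 1 h and 736 and 756 at 3 h (step -0.96 ± 0.13, limma adjusted p = 1.39e-07). AT2G25450 had a step of -0.61 ± 0.19 (limma adjusted p = 0.0374) and lost its adjusted p whichever of the 5 arrays was left out, at -0.51 to -0.71. The transporter gene AT3G21670 (NPF6.4) had 40.1, 21.1 and 28.6 at 1 h and 1.67 and 10.6 at 3 h (step -1.06 ± 0.21, limma adjusted p = 0.000272), and without 3 h replicate 2 its step was -0.77 with no adjusted p under 0.05.

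Of 5 measured genes of a touch and rapid stress list 3 fell and 0 rose, beside 4.02% and 2.96% of all genes. WRKY53, a transcription factor of senescence and defence, had 154, 94.5 and 144 at 1 h and 54.1 and 50.6 at 3 h, which brought it back to the 51.1 to 61.1 of 0 h (step -1.08 ± 0.18, limma adjusted p = 6.89e-06). AT4G29780 had a step of -0.81 ± 0.18 (limma adjusted p = 0.00127), and WRKY22 one of -0.51 ± 0.16 (limma adjusted p = 0.0333), which was lost without 1 h replicate 1 (-0.50) or 3 (-0.48) or 3 h replicate 2 (-0.36). WRKY53 was under 2-fold, at -0.96, without 1 h replicate 1. STZ, a zinc finger factor of stress responses, and CML38, a calmodulin-like gene, did not pass (-0.42 ± 0.17 and 0.37 ± 0.22, limma adjusted p = 0.128 and 0.357).

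Of 8 measured U-box ubiquitin ligase genes, PUB23 and PUB26 fell and 0 rose, beside 4.02% and 2.96% of all genes. PUB23 had 111, 142 and 120 at 1 h and 68.4 and 67.5 at 3 h, below every 0 h array (step -0.73 ± 0.14, limma adjusted p = 0.000118), and PUB26 had 62.4, 44.5 and 57.9 at 1 h and 28.4 in both arrays at 3 h (step -0.67 ± 0.16, limma adjusted p = 0.00304, and 0.0535 with only the 5 arrays of the step in the fit). PUB22, the close relative of PUB23, had 45.1, 58 and 47 at 1 h and 43.9 and 21.7 at 3 h (step -0.47 ± 0.19, limma adjusted p = 0.128). Its step ran from -0.80 to -0.14 with 1 array left out. Further genes named after their values were seen were the immune kinase gene BIK1 (step -0.67 ± 0.12, limma adjusted p = 3.06e-05), the calmodulin-like CML42 (-0.90 ± 0.13, limma adjusted p = 7.81e-07), the bZIP factor BZIP61 (-0.96 ± 0.17, limma adjusted p = 3.92e-05) and GAMMA-VPE, a vacuolar processing enzyme (-0.71 ± 0.14, limma adjusted p = 0.000158). In these 4 genes all 3 h arrays lay below all 1 h arrays.

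Of 4 measured genes of a numbered peroxidase list, made after the values were seen, 0 passed the adjusted p of limma (0 higher and 1 lower at an unadjusted p under 0.05), with steps of -0.41 to 0.30. A pair of peroxidase genes outside that list, taken from the genes known beforehand, fell. Other peroxidase genes outside it were not counted, so no direction is given for the family. AT3G01190, a peroxidase gene, had 198, 254 and 250 at 0 h, 59.2, 140 and 84.2 at 1 h and 34.2 and 32.1 at 3 h, so it declined over both intervals (step -1.10 ± 0.23, limma adjusted p = 0.00057), and was under 2-fold without 1 h replicate 2 (-0.82). The peroxidase gene AT1G14550 was dim, with 11.2, 23.2 and 23 at 1 h and 2.82 and 2.15 at 3 h (step -0.91 ± 0.21, limma adjusted p = 0.00243). Of 2 measured type-A response regulators 1 fell. ARR15, which damps cytokinin signalling, had 20.8, 29.2 and 11.7 at 1 h and 5.54 and 7.61 at 3 h (step -0.67 ± 0.22, limma adjusted p = 0.044). Without 1 h replicate 1 or 2, or either 3 h array, ARR15 did not pass, at -0.65, -0.50, -0.60 and -0.74. The second measured member, RR16, had a step of -0.32 ± 0.12 (limma adjusted p = 0.11).

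AT4G10270, AT3G10040 and AT1G33055, known to respond to low oxygen, fell within the first 30 min, outside the step. AT4G10270, of the wound-responsive family, changed by -2.38 over that interval (limma adjusted p = 3.7e-20) and had 258, 315 and 383 at 0 h, 36.6, 51.9 and 55.6 at 30 min, then 75.5, 60.5 and 61.1 at 1 h and 55.4 and 53.1 at 3 h (step -0.21 ± 0.18, limma adjusted p = 0.552). AT3G10040 (HRA1), a transcription factor gene of the low-oxygen response, and AT1G33055 also did not pass (-0.17 ± 0.19 and -0.08 ± 0.23, limma adjusted p = 0.66 and 0.894). Of 7 measured members of that list, AT3G10020 alone passed, and it rose, from 34.9, 40.2 and 36.5 at 1 h to 103 and 97.5 at 3 h (step 1.13 ± 0.17, limma adjusted p = 1.43e-06).

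The 8 measured nuclear photosynthesis genes had a summed signal of 17943 to 21151 at 1 h and 18341 and 18386 at 3 h, and 0 of 8 passed the adjusted p of limma (at an unadjusted p under 0.05, 0 were higher and 1, LHCB4.2, lower, at -0.43 ± 0.18). RCA, the Rubisco activase gene, had 4568, 3726 and 3886 at 1 h and 3412 and 4143 at 3 h, which overlapped. Of 11 root hair markers 2 were measured, EXPA7 and EXPA18, with a summed signal of 51 to 108 at 1 h and 64 and 68 at 3 h, and 0 of 2 passed or reached an unadjusted p under 0.05 (-0.26 ± 0.23 and -0.02 ± 0.20, limma adjusted p = 0.596 and 0.968). The signals of EXPA7 were 29.7, 67.6 and 46.1 in the 1 h arrays, whose median signals were 40.8 to 41.6. In the 3 h arrays, with medians of 39.8 to 40.6, EXPA7 reached 37.4 and 34.3. Whether root hair transcripts were present in every array of the step was not tested. Of 67 plastid-encoded genes, a list made after the values were seen, 1 fell, beside 4.02% of all genes. Their median step was -0.16, and at an unadjusted p under 0.05 0 were higher and 7 lower. The 1 that fell was ndhE, a subunit of the plastid NADH dehydrogenase-like complex (step -1.14 ± 0.35, limma adjusted p = 0.0313). Leaving out 1 h replicate 1 or 3 or either 3 h array ended that call, at -0.99, -1.15, -1.34 and -0.94.

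Other families were counted without a theme of their own. Of 6 WRKY factors 0 rose and 2 fell, of 33 UDP-glycosyltransferases 0 and 2, of 11 glutathione S-transferases 1 and 1, and of 7 RALF peptides 1 and 1. Of 8 measured NRT1/PTR transporters on a list made after the values were seen, 2 rose and 1 fell. Genes of these families that the lists did not match were not counted. Of all genes, each counted once, 2.96% rose and 4.02% fell. With 1 array left out, the glycosyltransferases gave 0 to 1 rises and 0 to 3 falls, and the glutathione S-transferases, RALF peptides and NRT1/PTR transporters 0 to 1 of each. Of 17 cytochrome P450 genes 0 passed the adjusted p of limma (0 higher and 2 lower at an unadjusted p under 0.05), and of 5 histones and 7 tubulins 0 passed or reached an unadjusted p under 0.05.

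Array quality was close in the groups except for 1 array. For the GAPDH control, the ratio of 3' to 5' signal was 2.23 to 2.95 at 1 h and 2.26 to 2.65 at 3 h, but that of actin was 34.3 to 39.8 at 1 h and 33.5 and 87.9 at 3 h, with replicate 3 at 3 h the highest of all Fei-0 arrays. Across probe sets, which are not independent replicates, arrays within a group correlated at r = 0.976 to 0.984 at 1 h and 0.979 at 3 h. Without that array, 50 probe sets were called higher and 114 lower, and without the other 3 h array 54 and 132, where the remaining array is assumed to vary as the other groups do.

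Part of the falling probe sets had gone up in the first 30 min. The response at 30 min rests on arrays at 0 h and 30 min that are not part of the step. In it, 89 probe sets were called higher (0.559%) and 25 lower (0.157%). Of the 101 probe sets called lower from 1 h to 3 h, 27 had been called higher at 30 min, which is 26.7% of the falls and 30.3% of the early rises, and 1 had been called lower. Of the 47 called higher from 1 h to 3 h, 0 had been called higher and 0 lower by limma at 30 min, and at an unadjusted p under 0.05 and any size 2 were higher and 7 lower. By that looser rule, 5.5% of all probe sets were higher and 4.28% lower, beside 4.26% and 14.9% of the 47. The 27 had median signals of 32.3 at 0 h, 160 at 30 min, 180 at 1 h and 46.8 at 3 h, so that their median came back near the start. Single members of the 27 ended above or below it: HAT2 had means of 177 at 0 h and 363 at 3 h, and AT5G52670 of 18.1 and 6.03. The other 74 falling probe sets had medians of 149, 131, 139 and 50, and the 47 rising ones of 95.4, 69.9, 64 and 189. Members of the 74 differed in their course: EXLA2 and WRKY53 stood higher at 1 h than at 0 h, and AT3G01190 lower. By the adjusted p of limma at any size, 34 of the 101 were higher and 3 lower at 30 min, beside 1.74% and 0.735% of all probe sets.

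Of the 27, 5 are listed with 1 gene: HAT2, AT3G28420, AT5G52670, AT4G09890 and AT4G27280. AT3G28420 had 5.91, 12.6 and 12.8 at 0 h, 59.1, 55.3 and 61.6 at 30 min, then 73.5, 96.2 and 70.2 at 1 h and 11.9 and 20.5 at 3 h, an early rise almost wholly undone (step -1.58 ± 0.20, limma adjusted p = 1.15e-08). AT4G27280 went from 157, 163 and 303 at 0 h to 888, 779 and 891 at 30 min, and from 797, 653 and 1051 at 1 h to 439 and 321 at 3 h (step -1.09 ± 0.18, limma adjusted p = 1.07e-05). Its 3 h arrays were below those at 1 h and above those at 0 h, and its step was under 2-fold without 1 h replicate 3 (-0.91) or 3 h replicate 3 (-0.87). AT5G52670 and AT4G09890 had steps of -1.37 ± 0.26 and -1.15 ± 0.18 (limma adjusted p = 0.000161 and 2.37e-06).

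The step from 1 h to 3 h was also measured in each of the 6 other accessions, on arrays that are not those of Fei-0. The Bay-0 arrays carry that ecotype in their labels and also the term recombinant inbred line, and were read as Bay-0. Of the 47 probe sets called higher in Fei-0, 24 were called higher in Bay-0 (where 0.829% of all probe sets were), 24 in Col-0 (0.358%), 22 in C24 (0.647%), 20 in Bl-1 (0.201%), 19 in Bur-0 (0.27%) and 19 in Sha (0.371%). The shared ones were 40.4% to 51.1% of the Fei-0 rises, and from 18.2% of the rises in Bay-0 to 62.5% of those in Bl-1. Of the 101 called lower in Fei-0, 53 were called lower in Bur-0 (0.766%), 47 in Bay-0 (1.09%), 42 in C24 (0.804%), 39 in Col-0 (0.528%), 35 in Bl-1 (0.396%) and 33 in Sha (0.446%). They were 32.7% to 52.5% of the Fei-0 falls, and from 27.2% of the falls in Bay-0 to 55.6% of those in Bl-1. At least 1 other accession shared the call for 36 of the rises (76.6%) and 73 of the falls (72.3%), all 6 shared it for 7 and 12, and none for 11 and 28.

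For 38 of the 47 rises (80.9%) and 76 of the 101 falls (75.2%) the step had the same sign in all 6 other accessions, which held for 17.2% of all probe sets with a positive and 19.5% of those with a negative step in Fei-0. AT1G62770 rose by 1.71 to 2.13 in the other accessions and was called in all 6, and AT4G14270 rose by 1.01 to 1.71 and was called in all 6. HAT2, which reached -1.76 in Bur-0, and AT3G28420, with steps of -2.50 to -1.41 in the others, were each called in all 6. MSRB5 was called in 4 of 6, with steps of -1.85 to -0.91, and AT3G53980 in 5 of 6, with a step as low as -1.47. WRKY53 ran from -0.84 to 0.37 in the others and was called in none, although it fell in Bur-0 and Sha (-0.84 in each, limma adjusted p = 5.58e-05 and 7.06e-05).

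**Figure D4:**
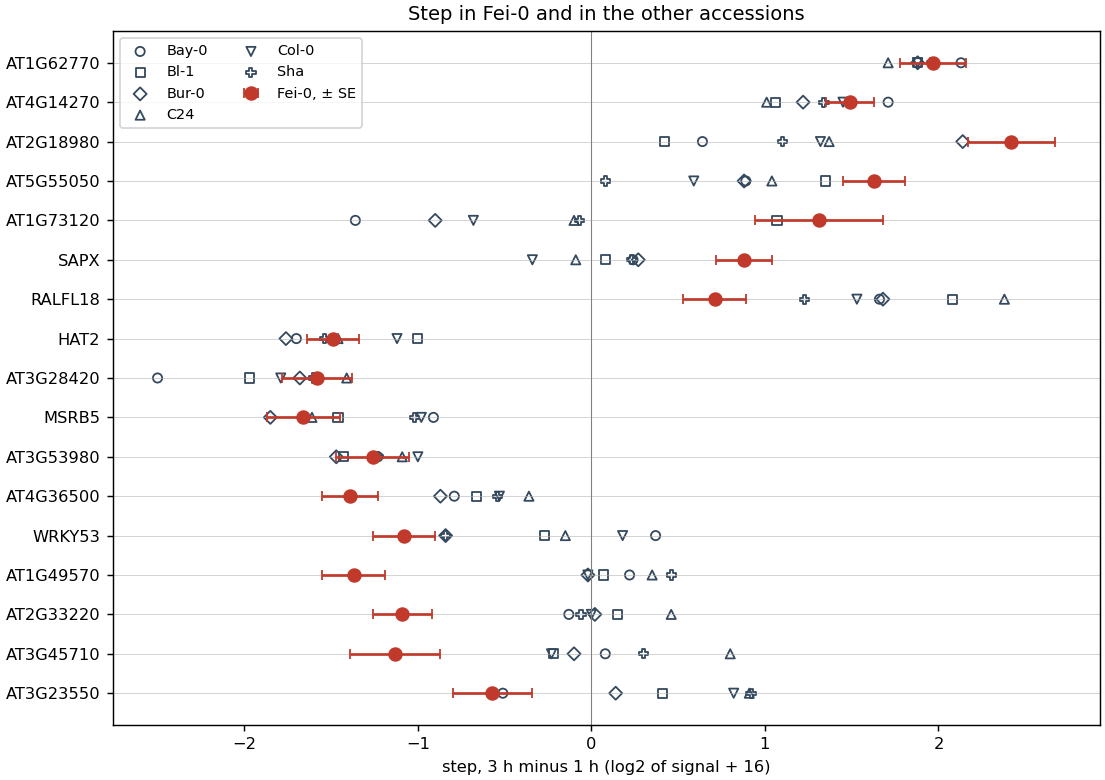
Step from 1 h to 3 h (x axis, difference in log2 of signal + 16) of 17 genes in Fei-0 (red, ± SE of the model) and in each of the 6 other accessions (open symbols). HAT2, AT1G62770 and AT3G28420 lie among the others, while AT1G49570, at -1.37 in Fei-0, lies outside the -0.02 to 0.46 of the others.

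The difference between the Fei-0 step and the mean step of the 6 other accessions was tested in the same limma fit. It was called for 7 probe sets with a higher (0.044%) and 11 with a lower step in Fei-0 (0.0691%), of which 8 were themselves called in Fei-0, and at any size for 27 and 60. With a pseudocount of 64 the called numbers were 2 and 2, and without 3 h replicate 2 they were 11 and 26. Of these 18, 7 are listed with 1 gene. The clearest was AT1G49570, which had 114, 166 and 160 at 1 h and 49.9 and 42.3 at 3 h in Fei-0 (step -1.37 ± 0.18, limma adjusted p = 3.2e-08) and steps of -0.02 to 0.46 elsewhere. The difference was -1.55 ± 0.19 (limma adjusted p = 1.48e-07), and it stayed between -1.70 and -1.46 when any 1 Fei-0 array of the step was left out.

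AT2G33220 and AT3G45710 had the same pattern. AT2G33220 went from 60.6, 49.7 and 51.9 to 23.3 and 11.5 in Fei-0 (step -1.09 ± 0.17) against -0.13 to 0.46 elsewhere, a difference of -1.16 ± 0.18 (limma adjusted p = 8.25e-05). AT3G45710 went from 40.2, 50.9 and 66.9 to 10.5 and 20.3 (step -1.13 ± 0.26) against -0.23 to 0.80, a difference of -1.23 ± 0.27 (limma adjusted p = 0.0109). No 3 h array reached a 1 h array in either gene. The step of AT3G45710 in Fei-0 lost its adjusted p without 3 h replicate 2 (-0.90) and was under 2-fold without 1 h replicate 3 (-0.98), and that of AT2G33220 was under 2-fold without 3 h replicate 3 (-0.83). With a pseudocount of 64 the difference of AT3G45710 was -0.63 (limma adjusted p = 0.141).

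RALFL18, a gene for a small secreted RALF-like peptide, had a smaller step in Fei-0 than elsewhere at the pseudocount used. Its signals were 7.06, 3 and 3.12 at 1 h, all below the pseudocount of 16, and 15.7 and 18.6 at 3 h, with a step of 0.71 ± 0.18 (limma adjusted p = 0.00811) that was lost without 3 h replicate 3 (0.64). In the other accessions the step was 1.23 to 2.38, called in all 6, and the difference was -1.06 ± 0.20 (limma adjusted p = 0.00142). The pseudocount sets the size of both: the Fei-0 step of RALFL18 was 0.25 with 64 and 1.83 with 1, and the difference was -0.58 with 64 (limma adjusted p = 4.79e-06) and -1.40 with 1, where it no longer passed (limma adjusted p = 0.361). AT2G18980, the largest rise, exceeded the others by 1.26 ± 0.27 (limma adjusted p = 0.00769), though Bur-0 reached 2.14 and the lowest was 0.42 in Bl-1. AT1G73120 went from 24.2, 7.18 and 25.9 to 82.6 and 55.6 in Fei-0 (step 1.31 ± 0.37, limma adjusted p = 0.0171), while its step was -1.36 in Bay-0 yet 1.07 in Bl-1, and the difference from the mean of the others was 1.65 ± 0.40 (limma adjusted p = 0.0247). The difference of AT1G73120 did not pass without Bay-0 among the others (1.45, limma adjusted p = 0.0799). In Fei-0 the adjusted p of AT1G73120 was lost without 1 h replicate 2 (1.03) or 3 h replicate 2 (1.08). AT3G23550 had overlapping arrays in Fei-0, 72.9, 62.5 and 44 at 1 h and 51.7 and 21.3 at 3 h (step -0.57 ± 0.23, limma adjusted p = 0.126), against -0.51 to 0.92 elsewhere, a difference of -1.02 ± 0.25 (limma adjusted p = 0.0278, and 0.0505 with no filter on low signals).

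Further named genes passed the difference test without reaching 2-fold in it. AT3G15630 had a step of 1.16 in Fei-0 against -0.40 to 0.77 elsewhere (difference 0.90 ± 0.22, limma adjusted p = 0.0273), and GSTU25, a glutathione S-transferase, 0.68 against -0.54 to 0.13 (difference 0.85 ± 0.19, limma adjusted p = 0.0125). The Fei-0 step of GSTU25 lost its adjusted p without 1 h replicate 1 (0.54) or 3 h replicate 3 (0.51). SAPX rose in Fei-0 by 0.88 and had steps of -0.34 to 0.27 elsewhere (difference 0.82 ± 0.17, limma adjusted p = 0.00766), and AT5G55050 rose by 1.63 against 0.08 to 1.35 (difference 0.83 ± 0.19, limma adjusted p = 0.0184). SAPX and AT3G15630 had first fallen in Fei-0, by -0.75 and -1.05 from 0 h to 1 h (limma adjusted p = 0.000148 and 2.23e-05). From 0 h to 3 h they did not pass (0.13 and 0.11, limma adjusted p = 0.683 and 0.809), so their rises were returns to the 0 h level. AT4G36500 had a step of -1.39 ± 0.16 in Fei-0 against -0.87 to -0.36 (difference -0.77 ± 0.17, limma adjusted p = 0.0109). WRKY53 and GAMMA-VPE had differences of -0.82 ± 0.19 and -0.65 ± 0.15 (limma adjusted p = 0.0143 and 0.0125), and the cytochrome P450 gene CYP71B6 one of -0.50 ± 0.13 (limma adjusted p = 0.0486). Among auxin genes that did not pass, the difference for HAT2 was -0.06 (limma adjusted p = 0.946), for GH3.3 -0.22 (0.672), for IAA30 -0.14 (0.812) and for PUCHI 0.38 (0.441).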

How the data were processed

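Transcripts of 83 samples were measured on ATH1 arrays. Intensity was deposited by the authors as a linear signal for each probe set on each array. MAS5 and GCOS stand in the submitters' processing notes, without versions in the sources used here, and every array had a mean signal of 100 once 2% of values were trimmed at each end. Of 22810 probe sets, 64 controls were left out of tests. The remaining 22746 comprised 13513 with a single listed gene, 503 listing several and 8730 listing none, and genes were named from the first kind only, through RefSeq identifiers. No genome build was named, so no coordinates are printed, and promoter motifs were not analysed here.

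Values were taken as log2(signal + 16), the lowest 30% of probe sets by mean signal (6824) were left out, and limma 3.58.1 (R 4.3.3) fitted 28 group means with a trended prior (55 residual and 13.2 prior degrees of freedom). Adjusted p-values are two-sided, after Benjamini-Hochberg over 15922 probe sets. The script was tested on simulated data. For arrays no depth applies, and their number limits precision. For the gene lists, the probe set of highest mean stood for each gene, and lists were described by counts, without a test. The rule for named genes took the 14 largest rises and falls among called genes, up to 4 members per list, called differences between accessions, and 19 genes known beforehand; others are marked as named after their values were seen. The comparison, the genes and the lists were chosen with earlier results of these data known. Lists of auxin response factors, and of ethylene, brassinosteroid, gibberellin, cytokinin oxidase and jasmonate genes, had no measured member. The same held for lists of ethylene response factors, aquaporins, nitrate uptake, the core cell cycle, ribosomal proteins and heat shock proteins. It also held for a list of 5 class III peroxidases, although peroxidase genes outside that list were measured. Same-numbered arrays at 1 h and 3 h had deviations that correlated at 0.104 (replicate 2) and 0.0055 (replicate 3), so the numbers were not taken to pair samples. Alternatives were other pseudocounts, filters and normalization, fewer arrays in the fit, a replicate block, and leaving out each array.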

Additional observations from a re-analysis of the deposited data

Results flagged for a closer look

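The difference between the Fei-0 step and the mean step of the 6 other accessions, tested in limma as a contrast of its own, passed the adjusted p and the 2-fold limit for 7 probe sets with a higher and 11 with a lower step in Fei-0. The step of AT1G49570 was lower in Fei-0 by -1.55, that of AT3G45710 by -1.23, that of AT2G33220 by -1.16, that of RALFL18 by -1.06 and that of AT3G23550 by -1.02 (the Fei-0 step minus the mean of the others), whereas AT1G73120 and AT2G18980 were above it by 1.65 and 1.26. Leaving out each Fei-0 array of the step in turn ended the call of AT1G49570 in 0 cases, of AT2G33220 in 1, of RALFL18, AT2G18980 and AT3G45710 in 2, and of AT1G73120 and AT3G23550 in 3. The differences then ran from -1.70 to -1.46 for AT1G49570, from -1.42 to -0.91 for AT2G33220, from -1.12 to -0.96 for RALFL18, from 1.05 to 1.52 for AT2G18980, from -1.46 to -1.01 for AT3G45710, from 1.38 to 1.88 for AT1G73120 and from -1.45 to -0.59 for AT3G23550. The difference of RALFL18, whose 1 h arrays were below the pseudocount, did not pass with a pseudocount of 1 (-1.40, limma adjusted p = 0.361), that of AT3G45710 with 64 (-0.63, limma adjusted p = 0.141), that of AT1G73120 without Bay-0 (1.45, limma adjusted p = 0.0799), and that of AT3G23550 with no filter or with the replicate block (-1.02 and -0.94, limma adjusted p = 0.0505 and 0.0577).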

How the results depend on the processing

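Of the called counts, 47 higher and 101 lower became 19 and 29 with a pseudocount of 64, 89 and 245 with a pseudocount of 1, and 495 and 755 by adjusted p alone. The cause was not tested beyond the construction of these settings, which shrink or widen the fold of dim probe sets or drop the fold limit. No filter, the lowest 50% left out, quantile normalization, only the Fei-0 arrays and only the 5 arrays of the step gave 38 to 49 higher and 85 to 101 lower. Leaving out 1 array gave 43 to 54 higher and 100 to 132 lower. The replicate block, fitted though the numbers do not pair the samples, gave 46 higher and 99 lower for the step, and 5 higher and 13 lower for the difference from the other accessions. That difference, 7 higher and 11 lower, became 2 and 2 with a pseudocount of 64, 17 and 43 with a pseudocount of 1, and 27 and 60 by adjusted p alone, 6 to 11 higher and 12 to 26 lower with 1 array left out, and 6 and 14 without Bay-0. Of 79 named genes past the adjusted p, 48 passed under every alternative in which they were tested, with the same sign. The adjusted p was lost for 16 with only the 5 arrays of the step (AKINBETA1, APG8A, ARR15, AT5G66930, ATG8E, EXLA1, EXPA15, GSTU25, IAGLU, PUB26, PUCHI, RALFL18, SWEET11, SWEET17, THE1, WRKY22), for 11 with only the Fei-0 arrays (AKINBETA1, APG8A, AT5G66930, ATG8E, EXLA1, EXPA15, EXPA8, IAGLU, RALFL18, SWEET16, WRKY22), for 8 with the replicate block (ARR15, AT2G25450, AT5G66930, EXPA8, IAGLU, PUCHI, SWEET11, XTH16), for 6 with no filter (APG8A, ARR15, AT2G25450, SWEET17, XTH16, ndhE), for 5 with a pseudocount of 1 (ARR15, AT2G25450, EXPA8, IAA29, PUCHI), for 4 with 64 (ARR15, AT3G45710, SWEET17, WRKY22), for 2 with quantile normalization (ARR15, AT2G25450), and for 9 to 22 with 1 array left out, most without 3 h replicate 2. Among named genes short of the threshold, the adjusted p was gained for 2 with a pseudocount of 64 (GH3.1 and LBD16). It was also gained for 1 with the replicate block and for 1 without 1 h replicate 1. The steps that changed sign were all short of the threshold: with 1 array left out LBD29 ran from -0.01 to 0.43, EXPA18 from -0.18 to 0.11, AT1G43040 from -0.13 to 0.05, AT1G33055 from -0.31 to 0.14, RCA from -0.24 to 0.03 and YUC2 from -0.28 to 0.03. The number of arrays and a dim signal limit the folds: 5 of the called rises and 18 of the falls had a group mean below the pseudocount.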
